A study of Mus musculus with 6 samples.

Results

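Described here are 10 early response genes of mouse haematopoietic stem cells (HSCs): the zinc finger transcription factor genes Egr1, Egr2 and Egr3, the orphan nuclear receptor genes Nr4a1, Nr4a2 and Nr4a3, and Ier2, Ier3, Dusp1 and Zfp36. They were taken as the immediate early genes outside the AP-1 family (the Fos and Jun genes), by matching the symbols to the Ensembl identifiers in the count tables. Each symbol matched 1 identifier, so the 10 genes are 10 of the 49585 in the tables. All libraries came from the bone marrow of untreated C57BL/6 mice aged 8 to 16 weeks. Cells negative for lineage markers were sorted as positive for Kit, Sca-1, CD150 and CD201 and negative for CD48 and CD34, and were then divided into high surface CD38 (labelled CD38-positive, 3 libraries) and low surface CD38 (labelled CD38-negative, 3 libraries). Each library pooled the cells of 10 mice, and the series' design text matches the libraries into 3 pairs. It does not say whether a pair shares mice.

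Immediate early genes are transcribed within minutes of a stimulus without new protein synthesis. Growth factor, calcium, cyclic AMP and stress signals reach them through kinases that act on factors already bound at their promoters, chiefly the serum response factor with its partners at CArG boxes and CREB at cyclic AMP response elements (CREs). Their mRNAs are short-lived, and several members of the group close feedback loops: Dusp1 encodes a phosphatase that inactivates MAP kinases, and Zfp36 encodes tristetraprolin, which binds AU-rich elements and promotes mRNA decay. In mouse HSCs, Egr1 and the Nr4a receptors are known as genes that restrain proliferation.

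The upstream sequences of the Nr4a genes, Dusp1 and Egr2 are shown because they carry the elements through which this response is known to run, and because the results below set these genes side by side. The RefSeq promoter table on GRCm38.p6 held 7 of the 10 genes, and the 250 bases before the RefSeq start were searched on both strands. The core of a CRE (TGACG, or CGTCA on the other strand, capitals below) was found 4 times each for Nr4a1, Nr4a2 and Nr4a3, 3 times for Dusp1 and 2 times for Egr2. In Dusp1 the last 2 matches overlap in a full CRE (TGACGTCA). Of all 32851 windows of that length in the table, 17.8% hold at least 1 core and 3.9% hold at least 2, while 1.55% hold a full CRE. Capitals in the Egr2 sequence also mark a CArG box, found in 1.47% of windows. Each stretch printed ends at a start of a principal GENCODE M21 transcript and holds no exon bases. That leaves 98 bases for Nr4a3 (with 3 of its 4 cores) and 203 for Dusp1. The stretches of Nr4a1, Egr2 and Dusp1 lie inside the annotated gene, which begins further upstream. Nr4a1 and Nr4a2 each have more than 1 principal start. The promoter table held 5 windows for Egr2, and the matches given are from the window printed.
Nr4a1, chr15:101266596-101266845, plus strand: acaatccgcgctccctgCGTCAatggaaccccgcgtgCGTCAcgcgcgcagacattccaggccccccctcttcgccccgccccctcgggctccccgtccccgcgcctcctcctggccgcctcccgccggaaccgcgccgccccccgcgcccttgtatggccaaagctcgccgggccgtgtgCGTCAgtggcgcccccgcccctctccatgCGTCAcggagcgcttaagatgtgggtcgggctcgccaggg
Nr4a2, chr2:57124004-57124253, minus strand: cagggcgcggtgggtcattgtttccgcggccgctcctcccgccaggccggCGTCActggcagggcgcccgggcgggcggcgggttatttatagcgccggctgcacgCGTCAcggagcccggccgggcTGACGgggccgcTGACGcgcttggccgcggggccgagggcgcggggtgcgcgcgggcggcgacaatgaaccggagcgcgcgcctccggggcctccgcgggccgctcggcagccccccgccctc
Nr4a3, chr4:48045055-48045152, plus strand: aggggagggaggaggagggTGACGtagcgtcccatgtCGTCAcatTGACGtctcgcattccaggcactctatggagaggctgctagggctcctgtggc
Dusp1, chr17:26508520-26508722, minus strand: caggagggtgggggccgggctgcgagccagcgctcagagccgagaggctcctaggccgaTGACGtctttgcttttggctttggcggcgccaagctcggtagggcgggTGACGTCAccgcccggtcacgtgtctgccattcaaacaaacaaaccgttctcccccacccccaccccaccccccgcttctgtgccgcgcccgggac
Egr2, chr10:67537619-67537868, plus strand: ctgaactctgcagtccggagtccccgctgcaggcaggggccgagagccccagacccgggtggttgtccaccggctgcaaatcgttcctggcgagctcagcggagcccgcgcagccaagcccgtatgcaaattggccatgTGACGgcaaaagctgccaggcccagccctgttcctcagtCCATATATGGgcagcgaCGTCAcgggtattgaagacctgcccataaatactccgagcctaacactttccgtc

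Among the other genes of the group with a window, Zfp36 held a CArG box and a match to the EGR recognition site (GCGNGGGCG, in 4.7% of windows). Its RefSeq start lies 1025 bases from that of the principal GENCODE M21 transcript, and all 250 bases of its window fall in exons of that annotation. Ier3 held an NF-kB site (in 3.9%). Nr4a1 and Nr4a2 each held 1 EGR site as well. The search located no CRE core in the windows of Ier3 and Zfp36. These matches describe letters in a window and say nothing of binding in these cells.

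Total counts were 16771180 to 18558610 per library, so 3 counts, the upper limit that a count of 0 allows, correspond to 0.162 to 0.179 CPM, the usual unit of counts relative to library size. All 9 HSC markers examined, Kit, Ly6a, Procr, Slamf1, Mecom, Hlf, Meis1, Tek and Hoxa9, were detected in every library, with a summed share of 0.0437% to 0.0996% of counts in CD38-positive and 0.0661% to 0.160% in CD38-negative libraries. All 14 granulocyte genes examined, such as S100a8 and S100a9, were also detected in every library. They took 7.39% to 14.6% of counts in CD38-positive and 8.71% to 12.5% in CD38-negative libraries. All 8 monocyte genes examined were detected as well, at 0.991% to 1.51% and 0.693% to 1.23%. The summed share of 9 B and plasma cell genes, detected in every library too, was 0.0366% to 0.0975% in CD38-positive and 0.130% to 0.274% in CD38-negative libraries, ranges that do not overlap, although 0 of the 9 passed the test described below. Early response genes are active in myeloid and B cells too, and the part of these cells in the levels below was not tested.

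The group spanned a wide range of abundance in these sorted libraries, and the levels cannot be assigned to HSCs alone. On a per-length scale (RPKM, the CPM divided by the length of the principal transcript in kilobases), Ier2 was the most abundant member, with a median of 63.5 over the 6 libraries and a range of 20.9 to 100.7. Dusp1 followed at 35.5, then Zfp36 at 16.9, Ier3 at 15.8, Egr1 at 9.75 and Nr4a1 at 3.28. Nr4a2 and Egr2 were lower, with median levels of 0.491 and 0.45 RPKM. Ier2 was above Dusp1 in 6 of 6 libraries, as was Dusp1 above Zfp36, Egr1 above Nr4a1 and Nr4a1 above Nr4a2. In CD38-positive replicate 1, however, Ier2 and Dusp1 were nearly equal, at 20.88 and 20.84 RPKM. Zfp36 was above Ier3 in 5 of 6, Ier3 above Egr1 in 4 of 6 and Nr4a2 above Egr2 in 5 of 6. The ranges of neighbours in this order overlapped over the libraries, except that Nr4a1 lay clear of Nr4a2 and Egr2 clear of Nr4a3. With the summed exon length of all transcripts in place of the principal one, the median of Dusp1 was 21.4 in place of 35.5 RPKM, and Ier3 came before Zfp36.

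**Figure D1:**
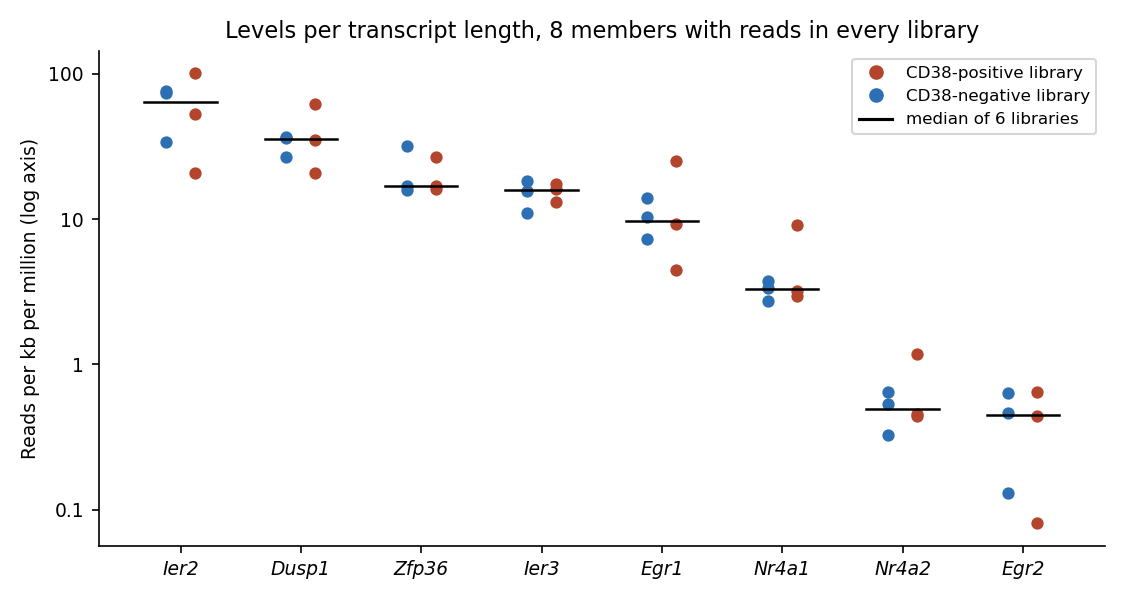
Level per transcript length (RPKM, log axis) of the 8 early response genes with reads in every library. Points are the 3 CD38-positive and 3 CD38-negative libraries and the black line is the median of the 6, from 63.5 for Ier2 to 0.45 for Egr2; the points of both populations overlap for each gene.

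Egr3 and Nr4a3 were nearly silent. Egr3 (ENSMUSG00000033730, chromosome 14, 70077203 to 70082614), a close relative of Egr1 that binds the same kind of DNA site, had 0 reads in each of the 6 libraries, which allows a level of up to 0.162 to 0.179 CPM. For Nr4a3 (ENSMUSG00000028341, chromosome 4, 48045153 to 48086447) the CD38-positive replicates 1, 2 and 3 gave 0, 0 and 2 reads, and the partners in their pairs gave 2, 4 and 0. It therefore lay at or near the detection limit in both populations. The low-count filter removed both genes, and the tests that follow cover the other 8.

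Across the 8 genes tested, the libraries sorted for high and low CD38 did not differ past the threshold. Levels of both populations overlapped for every one of them. Such overlap was the rule and is no trait of this group. Of the 14785 genes tested, only 6.51% had populations that did not overlap (3.34% with CD38-positive higher and 3.17% with it lower). In edgeR's quasi-likelihood test with the pair as a replicate block, none of the 8 had an adjusted p-value below the threshold of 0.05 (0.0135% of all genes did), and none had an unadjusted p-value under 0.05 (5.08% of all genes did). DESeq2 and limma-voom also called 0 of the 8. The median log2 fold change of the 8 genes, CD38-positive relative to CD38-negative, was 0.03, against 0.00 for all genes tested, with 4 higher and 4 lower. In bulk libraries, fewer expressing cells and less RNA per cell cannot be told apart.

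Egr1 (ENSMUSG00000038418, chromosome 18, 34859823 to 34864984, plus strand), which couples growth signals to transcription, gave 332, 731 and 2028 reads in CD38-positive replicates 1, 2 and 3. The CD38-negative partners gave 551, 832 and 1033. After scaling these were 19.9, 41.3 and 112 CPM in the CD38-positive and 32.7, 46.2 and 63.0 CPM in the CD38-negative libraries. The CD38-positive libraries thus held both the lowest and the highest value, a 5.62-fold span, and enclosed all of the CD38-negative values. The log2 fold change was -0.01 (SE 0.26, 95% interval -0.57 to 0.54, edgeR adjusted p = 0.997), with 1 of 3 pairs higher. That interval holds changes from a fold of 0.675 to 1.46. Without the replicate block the sign changed, to 0.28, and leaving out pair 1 or pair 3 gave 0.34 or -0.44.

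Egr2 (ENSMUSG00000037868, chromosome 10, 67535475 to 67542188, plus strand), best known for its role in myelinating glia and also in lymphocytes and macrophages, was scarce. Its reads numbered 4, 23 and 35 on the CD38-positive side against 23, 7 and 31 on the other, or 0.239, 1.30 and 1.93 CPM against 1.37, 0.388 and 1.89 CPM. Pair 1 and pair 2 differed in opposite directions, each beyond counting error, and pair 3 did not differ beyond it. Over the 3 pairs the log2 fold change was -0.13 (SE 0.67, 95% interval -1.57 to 1.32, edgeR adjusted p = 0.983), the widest interval of the 8 genes. Without pair 1 it was 0.77 and without pair 2 it was -0.96.

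Nr4a1 (ENSMUSG00000023034, chromosome 15, 101254269 to 101274795, plus strand) encodes Nur77, an orphan receptor that binds DNA without a known classical ligand. The CD38-positive replicates gave 125, 145 and 419 reads and the CD38-negative partners 162, 154 and 115. In CPM these were 7.48, 8.19 and 23.1 against 9.63, 8.55 and 7.02. The other 5 libraries lay close together, between 7.02 and 9.63 CPM, below CD38-positive replicate 3. The log2 fold change was 0.42 (SE 0.37, 95% interval -0.36 to 1.21, edgeR adjusted p = 0.936) with 1 of 3 pairs higher. It turned to -0.21 without pair 3.

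Nr4a2 (ENSMUSG00000026826, chromosome 2, 57106830 to 57124003, minus strand), the receptor Nurr1 known for its role in dopamine neurons, had a similar profile at a lower level. The CD38-positive replicates gave 27, 28 and 76 reads and the partners 39, 21 and 31. CD38-positive replicate 3 was again the highest, at 4.19 CPM, and the other libraries ran from 1.16 to 2.32 CPM. Over the pairs this gave a log2 fold change of 0.37 (SE 0.46, 95% interval -0.61 to 1.35, edgeR adjusted p = 0.949), and -0.06 without pair 3. The ratio of Nr4a1 to Nr4a2 reads within a library ran from 3.71 to 7.33, a 1.98-fold span, against 3.29-fold for the level of Nr4a1 and 3.59-fold for that of Nr4a2.

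Ier2 (ENSMUSG00000053560, chromosome 8, 84661331 to 84662852, minus strand), a gene with a single exon whose product is a nuclear regulator of transcription, gave 531, 1430 and 2783 reads in CD38-positive replicates 1, 2 and 3. In the partners it gave 872, 2028 and 1895. In CPM these were 31.8, 80.8 and 153 against 51.8, 112 and 116, so as for Egr1 the CD38-positive libraries were both lowest and highest. Its log2 fold change was -0.26 (SE 0.23, 95% interval -0.74 to 0.23, edgeR adjusted p = 0.936), with 1 of 3 pairs higher. Without pair 3 it was -0.59.

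Ier3 (ENSMUSG00000003541, chromosome 17, 35821684 to 35822923, plus strand), which encodes IEX-1, a stress-inducible protein that modulates cell survival, varied least. Its levels were 18.1, 14.7 and 19.8 CPM in the CD38-positive libraries and 20.7, 17.6 and 12.5 CPM in the CD38-negative ones, a 1.66-fold span over all 6. The group means were 17.5 ± 2.58 and 17.0 ± 4.16 CPM (SD, n = 3 each). A log2 fold change of 0.07 resulted (SE 0.26, 95% interval -0.49 to 0.62, edgeR adjusted p = 0.981), and -0.23 without pair 3.

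Dusp1 (ENSMUSG00000024190, chromosome 17, 26505590 to 26562128, minus strand), the MAP kinase phosphatase, stood at 41.5, 69.8 and 122 CPM in the CD38-positive libraries. In the CD38-negative libraries it was at 52.9, 73.2 and 71.6 CPM. CD38-positive replicate 3 was the highest and CD38-positive replicate 1 the lowest of the 6. The log2 fold change was 0.12 (SE 0.23, 95% interval -0.37 to 0.60, edgeR adjusted p = 0.966), and -0.21 without pair 3. GENCODE M21 extends this gene over Ergic1 on the opposite strand. The strand setting of the counting is not given in the sources used here, so reads of the shared stretch cannot be told apart.

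Zfp36 (ENSMUSG00000044786, chromosome 7, 28376784 to 28380253, minus strand) did not follow that order. It had 47.3, 44.6 and 74.0 CPM in the CD38-positive libraries and 44.3, 88.8 and 47.2 CPM in the CD38-negative ones. The other 4 libraries lay between 44.3 and 47.3 CPM, while CD38-negative replicate 2 and CD38-positive replicate 3 stood above them. Its log2 fold change was -0.08 (SE 0.27, 95% interval -0.65 to 0.49, edgeR adjusted p = 0.979) with 2 of 3 pairs higher, and 0.36 without pair 2. An antisense gene, Gm44710, overlaps it.

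**Figure D2:**
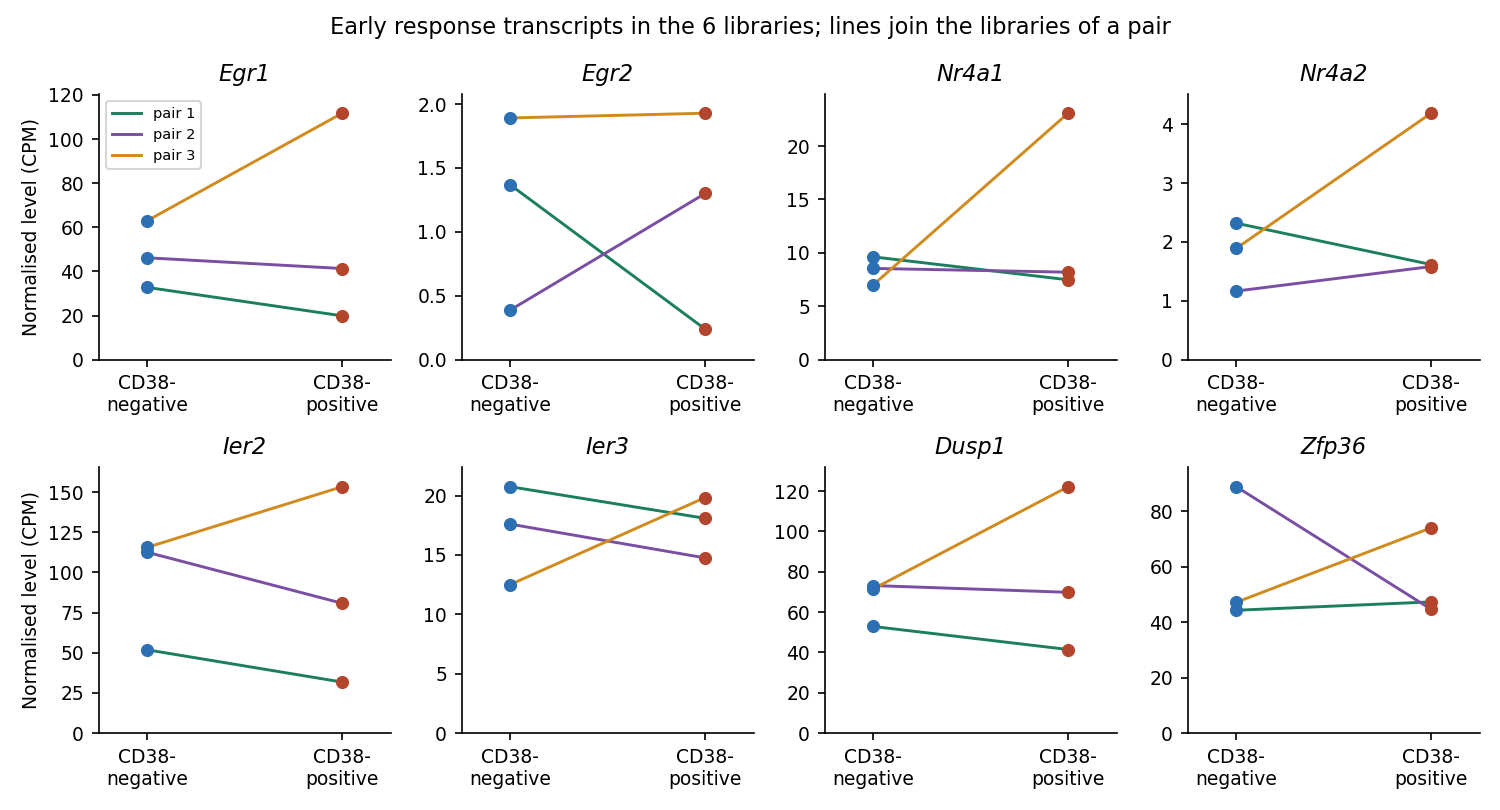
Normalised level (CPM, axes from 0) of the 8 tested early response genes in each library; blue points are CD38-negative, red points CD38-positive, and coloured lines join the libraries of a pair. The pair 3 line goes up in each panel, by the least for Egr2, and for Egr1, Egr2, Ier2 and Dusp1 the CD38-positive points hold both the highest and the lowest value.

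The pairs differed in direction. In pair 3 all 8 genes were higher in the CD38-positive library, where 52.7% of all genes tested were. The median log2 difference of the 8 was 0.72 in that pair, against 0.03 for all genes. In pair 1 only Zfp36 was higher (50.3% of all genes), and the median of the 8 was -0.42 against 0.00 for all genes. Pair 2 had a median of -0.11 against -0.02, with Egr2 and Nr4a2 higher (48.7% of all genes). Egr1, Nr4a1, Ier2, Ier3 and Dusp1 shared the order of lower in pairs 1 and 2 and higher in pair 3, which 14.1% of all genes showed. None of the 8 kept 1 direction in all 3 pairs, as 24.5% of all genes did.

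Counting error was smaller than most of these differences within a pair. With an exact binomial 95% interval, which covers counting error only and compares 2 libraries rather than the populations, 5 of the 8 genes were lower in the CD38-positive library of pair 1 and 3 were within counting error. In pair 2, 4 were lower, 1 was higher and 3 were within it. In pair 3, 7 were higher and 1, Egr2, was within it. The share of all genes beyond counting error was not computed, so these counts cannot be read as particular to the group. Libraries of 1 population also differed by more than counting noise, with a chi-square of at least 51.4 per degree of freedom. For Egr1 the log2 ratios were -0.72 (interval -0.92 to -0.52), -0.16 (interval -0.31 to -0.02) and 0.83 (interval 0.72 to 0.94) in pairs 1, 2 and 3. Nr4a1 had its largest ratio in pair 3, at 1.72 (interval 1.42 to 2.03), a 3.29-fold difference.

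**Figure D3:**
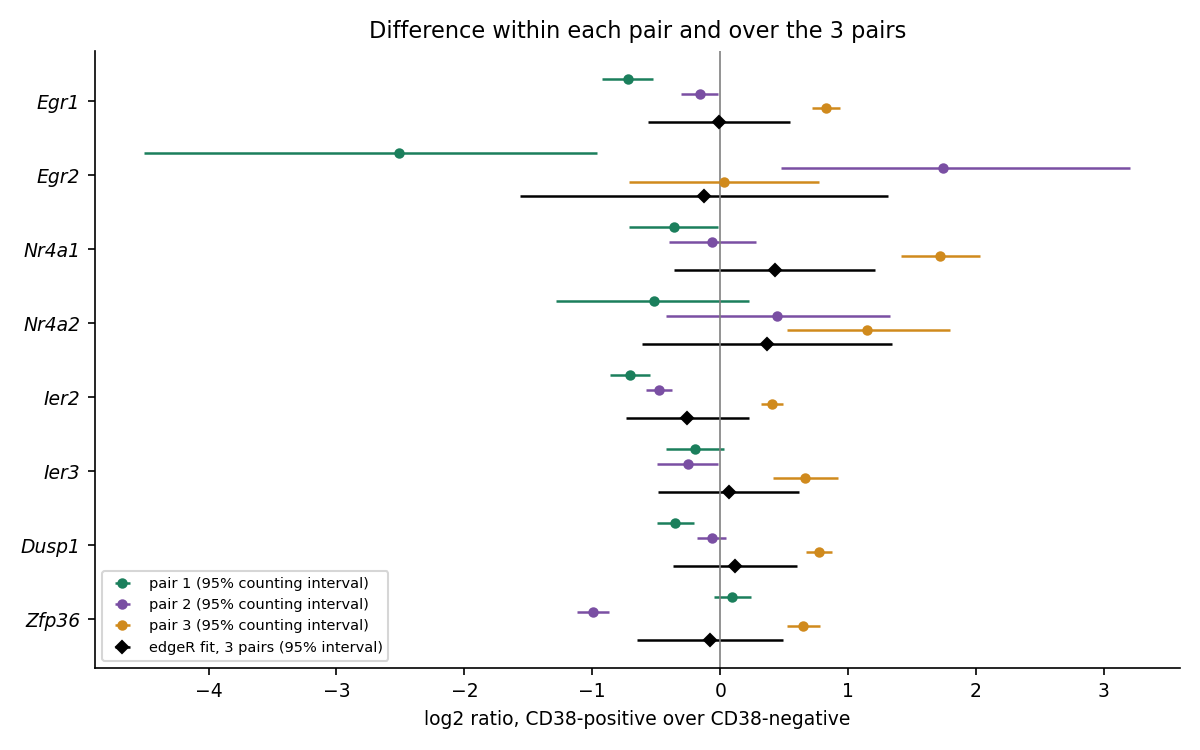
Log2 ratio of CD38-positive over CD38-negative (x axis) for each of the 8 genes within each pair, with 95% counting intervals, and the edgeR estimate over the 3 pairs with its 95% interval (black diamonds). Each black interval crosses 0, while the pair 3 intervals of 7 genes lie above 0 and the pair 1 intervals of 5 genes lie below it. The pair intervals cover counting error only. The share of all genes beyond it was not computed, so these counts cannot be read as particular to the group.

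CD38-positive replicate 3 held the highest level of 6 of the 8 genes, Egr1, Egr2, Nr4a1, Nr4a2, Ier2 and Dusp1. It was the highest library for 15.3% of all genes. Together the 10 genes summed to 151, 270.0 and 540 CPM of unscaled totals in CD38-positive replicates 1, 2 and 3, and 212, 375 and 309 in their partners. The granulocyte share was 14.6%, 7.39% and 9.94% of counts in the same CD38-positive libraries and 11.5%, 8.71% and 12.5% in the partners. Mitochondrially encoded genes took 4.28%, 1.44% and 2.69% of counts against 3.68%, 3.74% and 4.43%. CD38-positive replicate 3 was neither the highest nor the lowest in either share. The share of the 9 HSC markers was 0.0437%, 0.0547% and 0.0996% in CD38-positive replicates 1, 2 and 3 and 0.0661%, 0.160% and 0.0844% in the partners. Within each population, of 3 libraries, it followed the order of the summed early response reads. Over all 6 libraries it did not. CD38-negative replicate 2 had the highest HSC marker share, while CD38-positive replicate 3 had the highest sum. The part of these shares in the result was not tested. In a fit without the replicate block and without CD38-positive replicate 3, added after the values were seen, all 8 log2 fold changes were below 0, as were 51.4% of all genes. They ran from -0.05 for Ier3 to -0.73 for Ier2, and none passed the adjusted threshold. With that library kept and no block, 3 of the 8 and 49.7% of all genes were below 0. Since the library left out was the highest CD38-positive one for each of the 8 genes, lower estimates follow from that choice.

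The levels of Egr1, Ier2 and Dusp1 also varied between pairs, short of the adjusted threshold. Relative to pair 1, and averaged over both populations, Egr1 was higher by 0.73 in pair 2 and by 1.73 in pair 3 on the log2 scale. Ier2 was higher by 1.22 and 1.73, and Dusp1 by 0.59 and 1.02. An edgeR test of the pair term over all genes, also added after the values were seen, gave unadjusted p-values of 0.00034 for Egr1, 0.00011 for Ier2 and 0.0096 for Dusp1. After adjustment over all genes these were 0.097, 0.068 and 0.235, so none of the 8 passed the adjusted threshold, which 0.115% of all genes did. An unadjusted p-value under 0.05 was reached by these 3 of the 8 genes and by 13.5% of all genes. What a pair shares, apart from being matched in the design text, is not stated.

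The spread between libraries restates this variation between pairs from the same counts and is no further support for it. The biological coefficient of variation of Egr1 was 42.3% without the block and 22.2% with it. That of Ier2 was 40.2% and 19.5%, and that of Dusp1 29.4% and 19.7%. For all genes the medians were 26.4% and 22.4%. Ier3 and Zfp36 were near those medians, with 24.4% and 27.1% without the block and 22.5% and 22.7% with it. Nr4a1 had 36.2% without the block and 29.8% with it, and Nr4a2 41.6% and 35.0%. Egr2, with the fewest reads of the tested genes, had 58.6% and 47.5%.

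Within the group, profiles over the 6 libraries were compared by the root mean square (RMS) difference of centred log2 CPM, a description with no test. Egr1 and Ier2 were the closest of the 28 pairs of tested genes, at 0.26, followed by Nr4a1 and Nr4a2 at 0.30 and Egr1 and Dusp1 at 0.33. Egr2 and Zfp36 were the farthest apart, at 1.13. The ratio of Ier2 to Egr1 reads stayed between 1.37 and 2.44 in the 6 libraries. By contrast, the ratio of Egr1 to Ier3 reads ran from 1.10 to 5.63.

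Among 13243 other genes with a mean of at least 20 counts, the profiles nearest to that of Egr1 were those of Ccser1 and Raver2, which encodes an RNA-binding protein. Their RMS differences were both 0.16, against a median of 0.82 for all of these genes. Napb, a gene of vesicle fusion, Rab11fip3, an effector of vesicle recycling, and B330016D10Rik were nearest to Nr4a1, each at 0.20 (median 0.64). H2-T-ps, an MHC pseudogene whose reads may be shared with related genes, Tnfsf9, the ligand of 4-1BB, and Galc, a lysosomal galactosidase gene, were nearest to Zfp36, at 0.08, 0.09 and 0.10 (median 0.49). With 6 libraries and so many candidates, some profiles will be close whatever the genes do.

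The other genes of the response were examined from fixed lists. From each list, the genes named are those with the smallest unadjusted p-values. Of 45 further early response genes, 41 were tested and 0 passed the adjusted threshold. An unadjusted p-value under 0.05 was reached by 5 higher and 1 lower gene, and by 5.08% of all genes. The median log2 fold change of the 41 was 0.13, with 27 higher and 14 lower (7404 and 7381 of all genes). Their pair medians were 0.05, 0.02 and 0.35. Plk2, which encodes a stress-inducible polo-like kinase, was at 22.5, 31.4 and 68.2 CPM in the CD38-positive libraries and 8.74, 17.6 and 26.6 CPM in the partners. Its log2 fold change was 1.18 (SE 0.22, adjusted p = 0.145 in edgeR), higher in 3 of 3 pairs, although the values of both populations overlapped. Of 11 alternative fits 3 called it, DESeq2 among them, and its adjusted p-value ran from 0.00027 without pair 2 to 0.994 without the replicate block. In that last fit, where 0 of all genes passed, its log2 fold change was 1.21 (unadjusted p = 0.022 in edgeR). Without both the block and CD38-positive replicate 3 its log2 fold change was 0.61. Atf3, a stress-induced transcription factor gene of the CREB/ATF family, was at 2.03, 1.92 and 4.02 CPM against 1.55, 0.61 and 0.732 CPM. Its populations did not overlap, as for 6.51% of all genes. The log2 fold change of Atf3 was 1.47 (SE 0.51, adjusted p = 0.925 in edgeR), and 0.97 without pair 3. Btg2, an antiproliferative gene, had 0.53 (edgeR adjusted p = 0.925). Rgs1, a regulator of G protein signalling, had -0.95 (edgeR adjusted p = 0.764). It passed with no low-count filter (edgeR adjusted p = 0.0196), the 1 call among its 11 alternative fits, and without pair 2 its log2 fold change was -0.55. Rgs1 is also expressed in B cells, whose summed share was lower in the CD38-positive libraries, and the part of that share was not tested.

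Among the kinases and factors that act on early response promoters, all 28 genes of the ERK, SRF and CREB list were tested and 0 passed, with a median log2 fold change of 0.00 and 14 in each direction. Map2k1, which encodes the kinase MEK1, was the 1 gene with an unadjusted p-value under 0.05, at a log2 fold change of 0.49 (SE 0.22, adjusted p = 0.926 in edgeR). Its levels were 166.3, 234 and 181 CPM in the CD38-positive libraries and 165.9, 114 and 135 CPM in the partners. The populations did not overlap (6.51% of all genes did not), but only just, and pair 1 differed by 0.00 on the log2 scale. Without pair 2 the log2 fold change was 0.20.

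Of 17 feedback regulators and partners, such as the Egr corepressors Nab1 and Nab2 and the Sprouty and Dusp inhibitors of ERK signalling, 16 were tested and 0 passed. Their median was -0.16, and 3 had an unadjusted p-value under 0.05 (5.08% of all genes did), all lower. Spry4 gave 2, 9 and 7 reads on the CD38-positive side and 13, 67 and 12 in the partners, a log2 fold change of -2.14 (SE 0.62, adjusted p = 0.888 in edgeR). Dusp16, a phosphatase of JNK and p38, had -1.18 (SE 0.37, adjusted p = 0.893 in edgeR) and Spred1, an inhibitor of RAS signalling, -0.78 (SE 0.25, adjusted p = 0.893 in edgeR). All 3 were lower in 3 of 3 pairs. Without pair 2, Spry4 had -1.63 and Dusp16 had -0.60. The populations of Spry4 did not overlap, as for 6.51% of all genes. The B and plasma cell share lay on the same side, and its part in these values was not tested. Of the 14 genes of AU-rich mRNA decay, 0 passed, with a median of -0.06. Hnrnpd, which encodes the AU-rich element binding protein AUF1, had the only unadjusted p-value under 0.05, at -0.62 (SE 0.26, adjusted p = 0.925 in edgeR). It had -1.07 without pair 1, -0.36 without pair 2 and -0.19 without both the block and CD38-positive replicate 3.

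**Figure D4:**
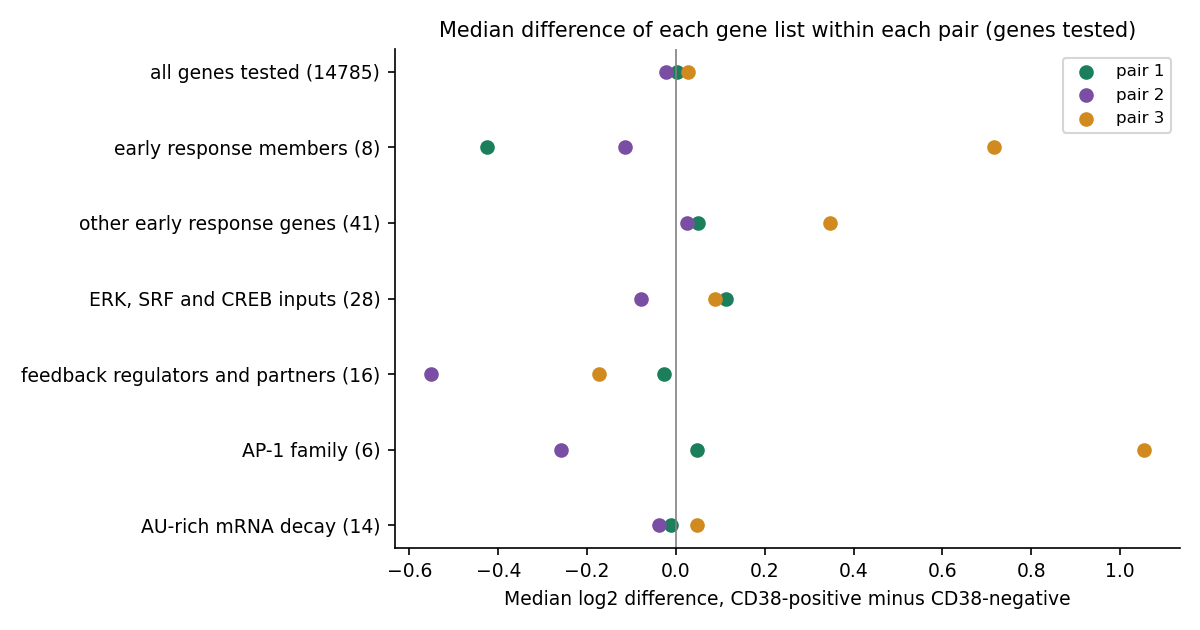
Median log2 difference (x axis) of each gene list within each pair, with the number of genes tested in brackets. The 8 early response genes run from -0.42 in pair 1 to 0.72 in pair 3, the AP-1 genes reach 1.05 in pair 3, and all genes together stay within 0.03 of 0.

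Fos, the AP-1 gene that is induced by the same signals as Egr1, showed another pattern. Of the AP-1 list, 6 of 7 genes were tested and 0 passed the adjusted threshold; the median was 0.20 and the pair medians were 0.05, -0.26 and 1.05. Fos was at 66.0, 51.2 and 84.5 CPM in the CD38-positive libraries and 26.8, 23.4 and 31.7 CPM in the partners. Its populations did not overlap, as for 6.51% of all genes. Its log2 fold change was 1.28 (SE 0.20, adjusted p = 0.0535 in edgeR), and 5 of 11 alternative fits called it. Adjusted p-values ran from 1.39e-05 in DESeq2 to 0.911 without both the block and CD38-positive replicate 3. In that last fit, where 0 of all genes passed, its log2 fold change was 1.10 (unadjusted p = 0.0012 in edgeR). Fos was singled out with this difference already known. The ratio of Fos to Egr1 reads was 3.32, 1.24 and 0.757 in CD38-positive replicates 1, 2 and 3 and 0.817, 0.506 and 0.502 in their partners. It was higher in 3 of 3 pairs, by a mean of 1.30 on the log2 scale, and an exact two-sided permutation test that swaps the libraries within pairs gave p = 0.25, the smallest that 3 pairs allow. Of the 5 ratios of reads compared in this way, that of Ier2 to Ier3 also kept 1 direction, lower in 3 of 3 pairs by a mean log2 difference of -0.33, with the same exact permutation p = 0.25. Adjusted over the 5 ratios, both are 0.625. A ratio of this kind does not depend on the scaling of the libraries.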

How the data were processed

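RNA-seq read counts per Ensembl gene were deposited by the authors as 1 table per library. The submitters' processing notes name cutadapt, STAR, HTSeq 0.6.1p1 and GRCm38; the annotation release and strand setting are not given in the sources used here. Symbols matched 49326 of 49585 identifiers, and coordinates are from GENCODE M21 (GRCm38). Low-count genes were removed with filterByExpr, leaving 14785. CPM used TMM-scaled totals, and log2 CPM a prior count of 2. Populations were compared in R 4.3.3 with edgeR 4.0.16 (quasi-likelihood F-test, pair plus population, Benjamini-Hochberg over all genes, threshold 0.05); standard errors come from the F statistic. The pairing comes from the design text; after subtraction of the population means, the log2 CPM of the 2 libraries of a pair correlated across genes at 0.34, 0.12 and 0.24. Libraries of 1 population differed by more than counting noise (a chi-square of at least 51.4 per degree of freedom). On simulated counts for 14508 genes, 52 of 100 genes changed 2-fold and 95 of 100 changed 4-fold were called, with 6 false calls. The simulated counts held no difference between pairs and used the dispersions of the fit with the block. Changed genes were drawn from those with a mean of at least 20 counts. The real pairs did differ, so these rates may not carry over to the libraries or to scarcer genes. Alternatives were the fit without the block, DESeq2 1.42.0, limma-voom (limma 3.58.1), 2 other scalings, 2 other filters and leaving out each pair. The members and lists were chosen with earlier results of these data known. Genes named beside the members were, per list, up to 3 per direction with the smallest unadjusted p under 0.05, and the 3 nearest profiles to Egr1, Nr4a1 and Zfp36; an HSC marker and a gene with a near profile are not reported here.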

Additional observations from a re-analysis of the deposited data

How the results depend on the processing

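The number of genes past the adjusted threshold, 2 in the fit with the replicate block (751 genes below an unadjusted 0.05), was 0 in the fit with no replicate block (417), 0 with unscaled library totals (595) and 0 without both the block and CD38-positive replicate 3 (704). It was 11 in DESeq2, 7 with DESeq2 size factors, 13 with a mean of at least 10 counts, 80 with no filter and between 2 and 41 in the fits that leave out 1 pair; the cause was not tested. None of the 8 early response genes passed in any of their 88 alternative values, whose adjusted p-values ran from 0.634 to 0.9999, and 2 had an unadjusted p under 0.05. Of these values 74 kept their sign and 14 changed it. Egr1 changed to 0.28 without the replicate block and 0.058 in limma-voom. Without both the block and CD38-positive replicate 3, Nr4a1 changed to -0.10, Nr4a2 to -0.16, Ier3 to -0.046 and Dusp1 to -0.24. Leaving out a pair gave -0.44 to 0.34 for Egr1, -0.96 to 0.77 for Egr2, -0.21 to 0.83 for Nr4a1, -0.058 to 0.81 for Nr4a2, -0.23 to 0.22 for Ier3, -0.21 to 0.35 for Dusp1, -0.45 to 0.36 for Zfp36 and -0.59 to -0.04 for Ier2. None of the 18 genes tested by name passed with the replicate block, and 0 of all genes passed without it. No call could therefore change between these fits, and that says nothing about how much the block matters. In edgeR the adjusted p of Fos was 0.0535 with the block and 0.732 without it. That of Plk2 was 0.145 and 0.994. No scaling moved the median of all genes by more than 0.02 on the log2 scale. Levels under 3 counts, at most 0.179 CPM, could not be told from 0.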
